A study of Mus musculus with 80 samples.

Results

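The mouse carries its Hox genes in 4 clusters, HoxA on chromosome 6, HoxB on chromosome 11, HoxC on chromosome 15 and HoxD on chromosome 2, and these clusters were read gene by gene for the repressive histone mark H3K27me3 in uterine fibroblasts. The members are 38 listed Hox genes, 10 of HoxA, 10 of HoxB, 9 of HoxC and 9 of HoxD, taken by name from 21627 annotated protein-coding genes. Each was described by its coverage, the percent of its gene span in mm10 plus 2 kb on either side that lay inside merged broad peaks of H3K27me3.

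Hox genes encode homeodomain transcription factors that give the body axis and the reproductive tract their regional identity, and genes of the same number in different clusters are paralogues. Within a cluster the genes stand in the order in which they act along the axis, from the anterior group 1 to the posterior group 13. In cells where a Hox gene is silent its chromatin is usually packed by Polycomb complexes, which place H3K27me3, and Kdm6b is one of the demethylases that remove it. In the Müllerian tract, the posterior HoxA genes mark successive segments: Hoxa9 the oviduct, Hoxa10 the uterus, Hoxa11 the uterus and cervix, and Hoxa13 the upper vagina.

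The fibroblasts were isolated with magnetic beads from digested myometrium and endometrium and profiled by CUT&RUN, where a nuclease tethered to the antibody releases marked chromatin for sequencing. The Kdm6b set compared Kdm6b f/f controls with Kdm6b conditional knockouts (cKO), all carrying the floxed allele and all mated with a B6 male. Pgr-Cre deletes in cells that express the progesterone receptor, which in the uterus include epithelium, stroma and muscle, and Pdgfra-Cre deletes in Pdgfra-expressing mesenchyme. Times are gestation days (GD), and tissue came either from implantation sites (IS) or from the uterus between them (inter-implantation sites, IIS). The Pgr-Cre cKO groups were GD5.5 IIS, GD8.5 IIS, GD14.5 IIS, GD14.5 IS and GD18.5 IS. Pdgfra-Cre cKO fibroblasts came from GD14.5 IS. Each of these 6 cKO groups had a Kdm6b f/f control group of its own day and site. The B6CBAF1/J set, from mice of that hybrid strain with no Kdm6b allele or Cre named, held 4 groups: uterus at GD0.5, IIS at GD5.5 after natural mating, uterus at GD5.5 following a vasectomized mating, and uterus of non-pregnant mice given progesterone for 3 days. Every group had 3 samples, whose reads the submitters pooled into 1 peak list, so there are 16 lists, 12 in the Kdm6b set and 4 in the B6CBAF1/J set, and no value for a single sample. The labels do not give the age of the mice.

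Lists in the Kdm6b set had 221218 to 287521 peaks over 608.9 to 739.6 Mb and those of the B6CBAF1/J set 131841 to 167482 peaks over 680.2 to 704.1 Mb. The control list of the Pdgfra-Cre pair covered the least, 608.9 Mb, against 731.8 Mb in its cKO list. Most peaks were weak: the median fold over background was 1.116 to 1.146 in the first set and 1.086 to 1.091 in the second. Only 121 to 1811 peaks a list reached a −log10 q of 2. How deeply each list was sequenced is not known from the files or labels. Among marker genes of cell types, 7 of 9 fibroblast genes had no peak in any list, and the other 2 averaged 22.9% (Pdgfra) and 8.29% (Thy1) over the control lists. All 5 epithelial genes averaged at least 61.2% coverage, and 4 of 5 immune genes averaged at least 50%. The 4 endothelial genes averaged 1.26% to 19.6%. Smooth muscle genes were split, with Actg2 at 96.8% and Cnn1 at 52.1% but Acta2 at 40.2%, Myh11 at 0.923% and Des without a peak in any list, and of 4 trophoblast genes Gcm1 and Plac1 averaged over 50% and Prl3d1 and Tpbpa 0% in controls. Coverage is not expression, and the deletion of Kdm6b itself cannot be read from peak lists.

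HoxA and HoxD can be followed from 6 promoters that lie at their covered ends or in their uncovered middle: 3 with no peak in any list (Hoxa10, Hoxa11 and Hoxd10) and 3 at the covered ends of HoxA and HoxD (Hoxa13, Hoxd1 and Hoxd13). They are RefSeq promoters of mm10 (GRCm38.p6), from 250 bases before to 50 bases after a start of the gene. At Hoxd10 this start lies inside the annotated gene span, which begins at chr2:74684273. The sequences are printed 5′ to 3′ on the gene's strand with every CG dinucleotide in capitals. CG-rich promoters are the usual landing sites of Polycomb complexes.
Hoxa10 (chr6:52240805-52241104, minus strand): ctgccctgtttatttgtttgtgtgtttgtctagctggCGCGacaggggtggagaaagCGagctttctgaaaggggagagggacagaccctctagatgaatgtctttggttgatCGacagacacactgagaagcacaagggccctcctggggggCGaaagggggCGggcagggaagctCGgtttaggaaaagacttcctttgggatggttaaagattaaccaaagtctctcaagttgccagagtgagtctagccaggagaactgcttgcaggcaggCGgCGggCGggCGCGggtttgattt
Hoxa11 (chr6:52245761-52246060, minus strand): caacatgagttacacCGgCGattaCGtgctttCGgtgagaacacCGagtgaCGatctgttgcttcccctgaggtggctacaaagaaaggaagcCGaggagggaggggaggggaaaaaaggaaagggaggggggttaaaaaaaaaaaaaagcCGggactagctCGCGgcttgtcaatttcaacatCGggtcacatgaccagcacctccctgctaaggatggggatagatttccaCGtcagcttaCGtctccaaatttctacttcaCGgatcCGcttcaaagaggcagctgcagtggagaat
Hoxa13 (chr6:52260831-52261130, minus strand): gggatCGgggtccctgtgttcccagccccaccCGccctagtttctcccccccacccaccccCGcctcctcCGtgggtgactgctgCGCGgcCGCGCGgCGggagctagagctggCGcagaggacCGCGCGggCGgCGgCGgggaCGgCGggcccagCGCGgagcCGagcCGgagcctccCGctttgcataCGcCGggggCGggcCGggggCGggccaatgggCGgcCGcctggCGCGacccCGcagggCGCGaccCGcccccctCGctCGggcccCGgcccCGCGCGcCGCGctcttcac
Hoxd1 (chr2:74762730-74763029, plus strand): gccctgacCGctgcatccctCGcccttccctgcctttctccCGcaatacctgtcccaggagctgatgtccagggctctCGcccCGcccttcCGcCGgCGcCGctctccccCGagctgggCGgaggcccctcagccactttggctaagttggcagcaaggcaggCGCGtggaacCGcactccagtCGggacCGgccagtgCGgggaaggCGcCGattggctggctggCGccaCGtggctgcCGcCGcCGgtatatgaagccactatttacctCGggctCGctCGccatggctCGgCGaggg
Hoxd10 (chr2:74691641-74691940, plus strand): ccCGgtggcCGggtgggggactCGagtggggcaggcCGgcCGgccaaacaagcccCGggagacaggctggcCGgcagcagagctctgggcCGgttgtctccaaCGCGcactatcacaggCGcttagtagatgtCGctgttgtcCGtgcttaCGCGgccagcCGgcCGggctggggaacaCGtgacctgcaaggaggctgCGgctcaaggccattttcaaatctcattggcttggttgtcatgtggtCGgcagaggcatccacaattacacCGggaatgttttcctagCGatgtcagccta
Hoxd13 (chr2:74667975-74668274, plus strand): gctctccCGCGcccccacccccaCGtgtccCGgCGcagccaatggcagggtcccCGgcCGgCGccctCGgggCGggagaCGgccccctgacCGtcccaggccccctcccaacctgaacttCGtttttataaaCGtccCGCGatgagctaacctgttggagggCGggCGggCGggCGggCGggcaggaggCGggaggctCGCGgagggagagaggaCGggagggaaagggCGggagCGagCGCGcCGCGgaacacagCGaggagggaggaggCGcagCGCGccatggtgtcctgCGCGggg

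The dinucleotide CG, which reads the same on both strands, occurred 45 times in the Hoxa13 promoter, a number that 2.36% of the 17273 promoters in the table reached. It occurred 37 times in that of Hoxd13 (6.95% of promoters had as many) and 29 times in that of Hoxd1 (16.9%). The uncovered promoters had fewer, 22 at Hoxd10 (31.7% of promoters had as many), 15 at Hoxa11 (47.9%) and 12 at Hoxa10 (54.0%). These 6 were chosen for their coverage, and the wider set was less divided. Of the 22 Hox genes with a promoter in the table, 8 had no peak within 2 kb of their start in any of the 16 lists, with a median of 13.5 CG and a range of 4 to 22. The 11 with a median coverage of at least 50% there had a median of 20 and a range of 9 to 45, so the ranges overlapped, and all promoters had a median of 14. Peaks covered at least 50% of the printed window of Hoxd1 and of Hoxd13 in 16 of 16 lists and of Hoxa13 in 8 of 16. The printed window of Hoxa13, with a G and C content of 81.0%, was untouched by a peak in 4 of 16 lists although both its flanks were covered.

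The 38 Hox genes were covered far more than most genes, but unevenly. In pooled tissue-derived cells, fewer cells with the mark and less of the mark per cell cannot be told apart. The median of their mean coverage over the 12 Kdm6b-set lists was 60.4%, against 3.46% for all genes, and 23 of the 38 (60.5%) averaged at least 50%, against 23.4% of all genes. In the B6CBAF1/J set the medians were 59.8% and 0.688%. At the same time, 6 Hox genes (Hoxa10, Hoxa11, Hoxd4, Hoxd8, Hoxd9 and Hoxd10) had no peak within their windows in any of the 16 lists, as did 31.8% of all genes. Only Hoxd1 and Hoxd13 were covered completely in all 16, as were 1.57% of all genes. The genes are not independent measurements: 22 pairs of neighbouring windows overlap, and 5 genes lie inside the annotated span of another (Hoxa4, Hoxa5 and Hoxa6 in Hoxa3, Hoxb4 in Hoxb3 and Hoxd4 in Hoxd3).

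**Figure D1:**
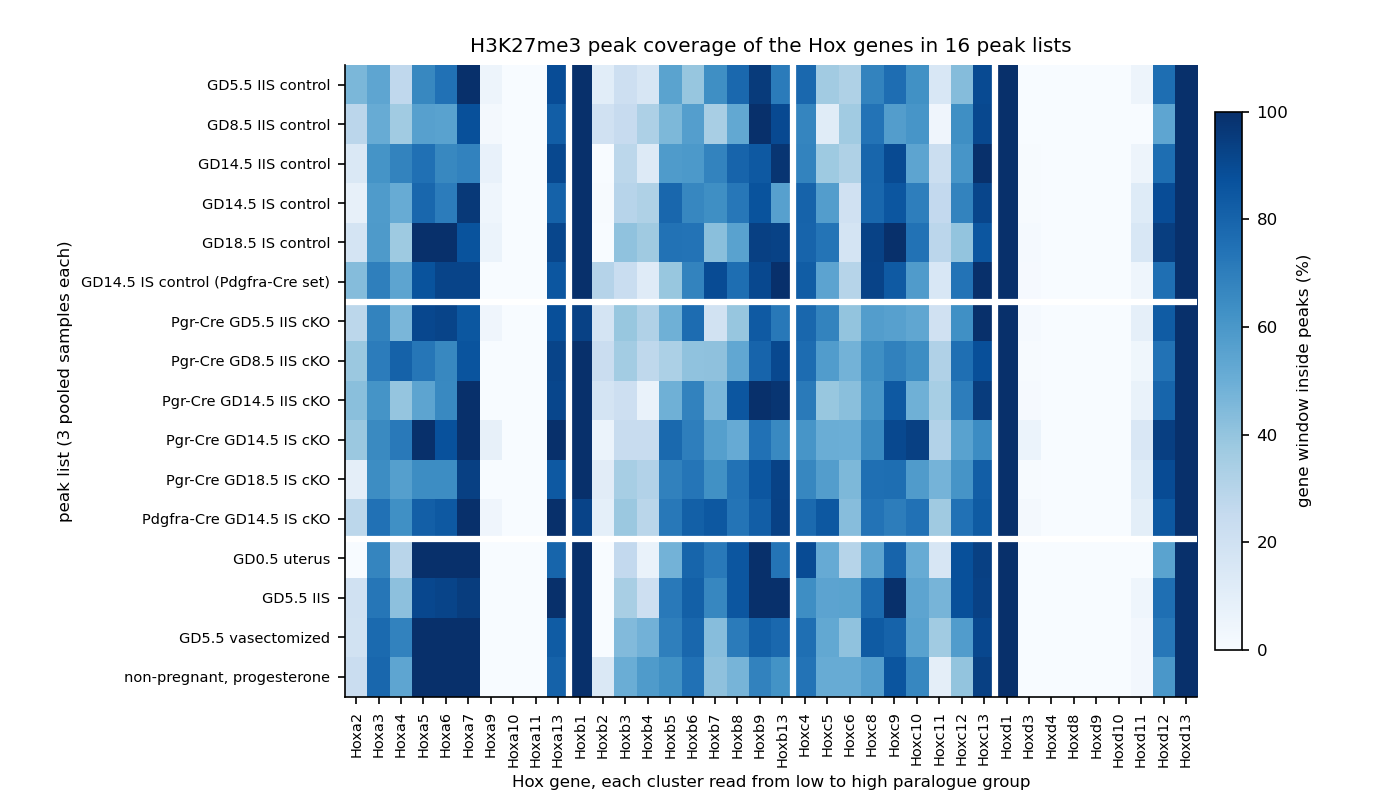
Coverage (percent of the gene span plus 2 kb on either side inside peaks) of the 38 Hox genes in cluster order, with 1 row per peak list, grouped as control, cKO and B6CBAF1/J. Hoxa10, Hoxa11, Hoxd4, Hoxd8, Hoxd9 and Hoxd10 are at 0 in all 16 lists, and Hoxd1 and Hoxd13 at 100.

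The clusters fell into 2 kinds. In HoxD, and in HoxA from Hoxa7 on, a middle without peaks lay between covered ends, and the genes at its borders (Hoxa7, Hoxa13 and Hoxd12) varied with the list. In HoxB and HoxC, and in anterior HoxA, coverage was mostly partial and its pieces lay in different places in different lists. Of the HoxD span from the first to the last listed gene (96.9 kb), 70.2% was in no list's peaks, 21.2% in those of all 16 lists and only 8.64% in some lists. In HoxA (98.5 kb) these shares were 29.9%, 14.3% and 55.9%. The span of HoxB (174 kb) had 7.17% in no list and 78.0% in some, and that of HoxC (116 kb) 1.11% and 86.0%. The mean coverage of a cluster's listed genes over the 6 control lists was 46.3% ± 4.30 (SD) in HoxA, 58.7% ± 2.99 in HoxB, 60.5% ± 5.79 in HoxC and 31.7% ± 2.22 in HoxD. Over the 6 cKO lists it was 50.1% ± 4.95, 57.9% ± 5.70, 63.1% ± 3.24 and 32.8% ± 1.41, each within 1 SD of the control mean of its cluster. In the 4 B6CBAF1/J lists it was 51.8% ± 3.18, 61.1% ± 3.59, 63.5% ± 4.95 and 29.8% ± 1.27.

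**Figure D2:**
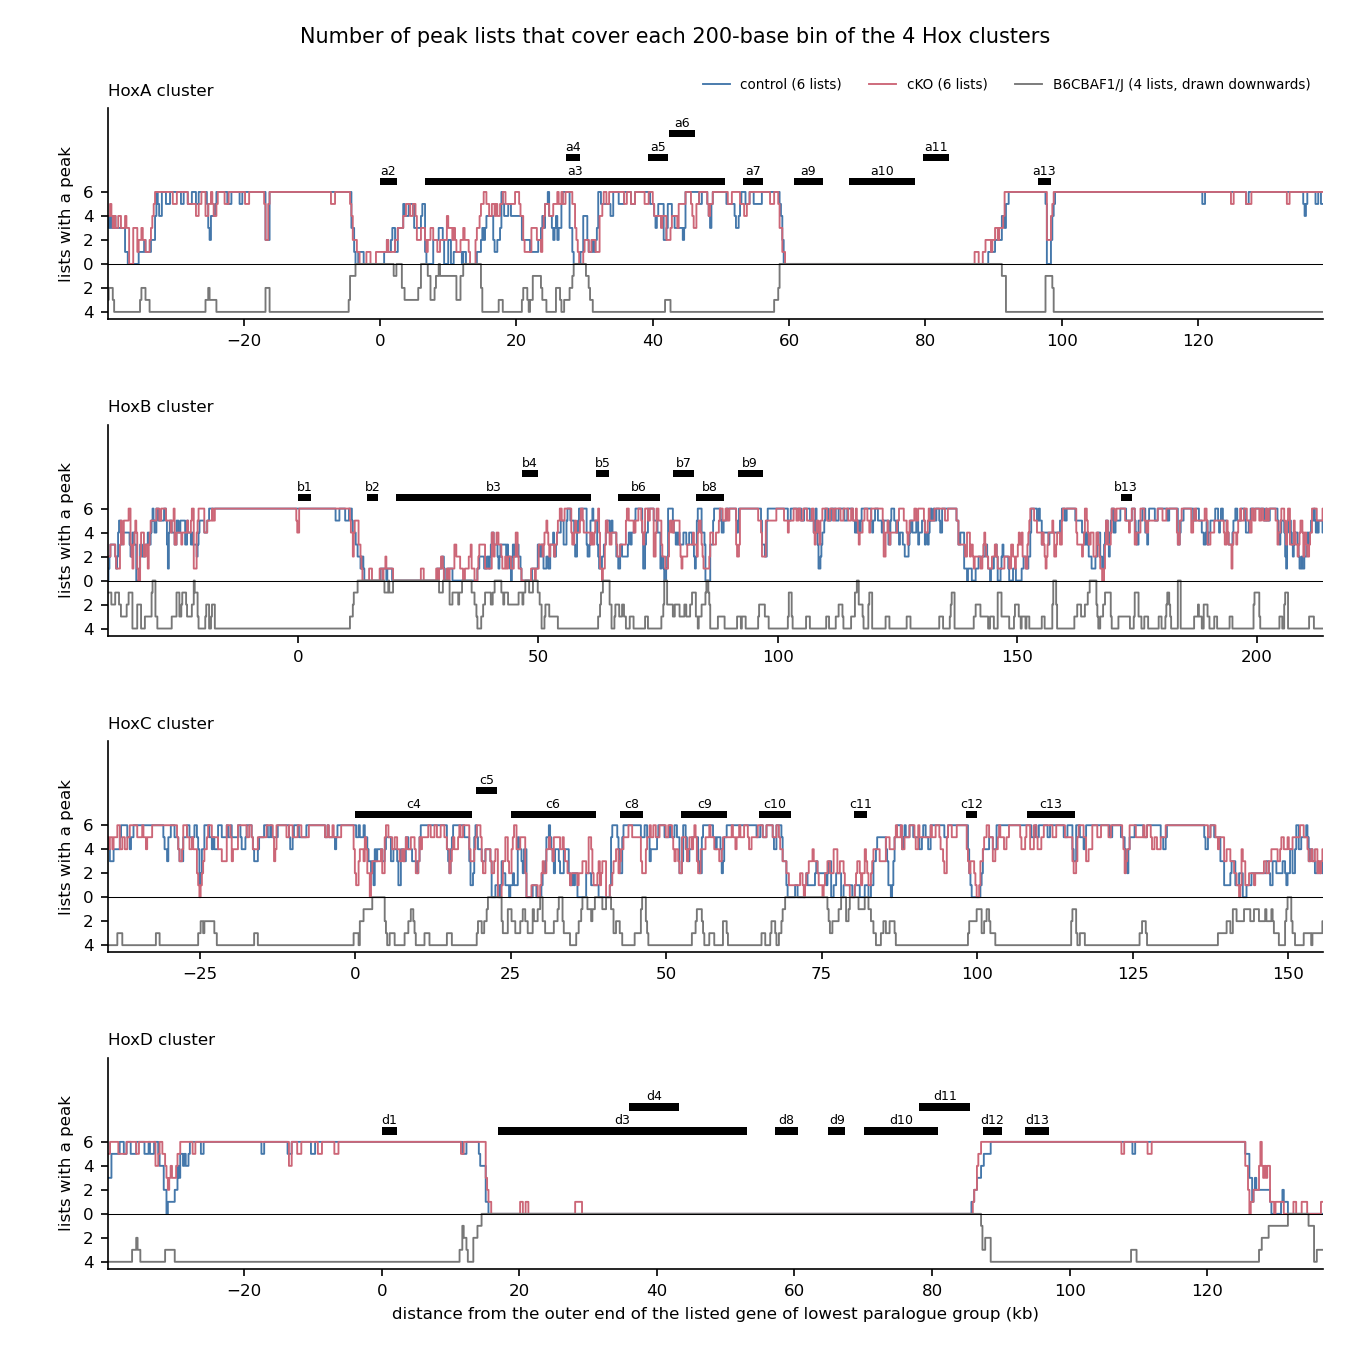
Number of peak lists covering each 200-base bin (vertical axis; control and cKO upwards to 6, B6CBAF1/J downwards to 4) against the distance in kb from the outer end of the listed gene of lowest group, with gene spans as black bars labelled by cluster letter and group. Both stretches without peaks, 27.8 kb over Hoxa9 to Hoxa11 and 56.7 kb over Hoxd4 to Hoxd11, are at 0 in all 16 lists, while HoxB and HoxC move between 0 and all lists along most of their length.

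In HoxA the anterior and middle genes were partly to nearly fully covered, and coverage stopped abruptly after Hoxa7. Hoxa2, which patterns the hindbrain and the second branchial arch, ranged over the control lists from 8.08% to 46.0% (median 23.1%) and over the cKO lists from 9.46% to 42.2% (33.1%). Hoxa3, a gene of thymus and parathyroid formation whose long span holds its 3 neighbours, ranged from 51.1% to 69.4% (58.6%) in controls and from 61.7% to 74.8% (66.6%) in cKO lists. Hoxa4 ranged from 26.9% to 67.9% in controls (44.1%) and from 39.8% to 80.7% in cKO lists (59.8%). These 3 genes overlapped between the genotypes. Hoxa5, needed for lung and trachea, had control and cKO medians of 76.9% and 77.3%, Hoxa6 72.5% and 75.2%, and Hoxa7 89.9% and 96.7%. In the B6CBAF1/J lists each of these 3 had a median of 100% and the lowest value was 90.65%.

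Hoxa9, the first gene past that edge, touched peaks only at the outer part of its window. In the order GD5.5 IIS, GD8.5 IIS, GD14.5 IIS, GD14.5 IS, GD18.5 IS and GD14.5 IS of the Pdgfra-Cre pair, its coverage in controls was 5.05%, 1.85%, 7.18%, 4.68%, 6.07% and 0%. In the cKO lists of the same order it was 4.22%, 0%, 0%, 8.01%, 0% and 4.03%, and it was 0% in all 4 B6CBAF1/J lists. The genotypes overlapped, and no list reached 10%. Hoxa10 (chr6:52231197-52240854), required for decidualization and implantation in the mouse uterus, and Hoxa11 (chr6:52242105-52245810), required for uterine stroma and gland development, were at 0% in each of the 6 control, 6 cKO and 4 B6CBAF1/J lists. A list gives peaks only, so a level below the caller's threshold is not known there.

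Hoxa13 (chr6:52258853-52260880), a gene of the distal limb, the hindgut and the vaginal end of the tract, was covered in every list. In the same order of lists its coverage in controls was 88.9%, 82.4%, 90.4%, 80.6%, 91.2% and 85.3%, and in cKO lists 87.99%, 92.0%, 91.4%, 100%, 84.1% and 100%. The B6CBAF1/J lists gave 79.6% at GD0.5, 100% at GD5.5 IIS, 83.0% after vasectomized mating and 80.5% after progesterone. The highest 4 Kdm6b-set values were cKO lists, the lowest 2 were controls, and the groups overlapped between 84.1% and 91.2%.

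The longest stretch of HoxA without a peak held Hoxa9, Hoxa10 and Hoxa11 in all 16 lists. It was 30.03 to 33.2 kb long in controls (median 32.02 kb), 27.8 to 32.9 kb in cKO lists (31.3 kb) and 33.2 to 33.5 kb in B6CBAF1/J lists. Between 4.13% and 5.56% of all peak-free stretches of a Kdm6b-set list were as long, and in the B6CBAF1/J lists 6.23% to 7.80%. Its Hoxa7 border lay between 2.18 and 3.19 kb past the upstream end of Hoxa7 in the 12 lists (a spread of 1.01 kb) and between 1.63 and 2.45 kb in the 4 (0.817 kb). Its Hoxa13 border lay 4.63 to 9.31 kb short of Hoxa13 in the 12 lists, with the largest distance in the Pgr-Cre cKO list of GD14.5 IS, and its spread was 4.68 kb in the 12 and 0.702 kb in the 4. The part free in all 16 lists was chr6:52221760-52249545, 27.8 kb, and 4.23% of 209637 such stretches on the autosomes were as long (median 0.820 kb).

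HoxD showed the same plan on a larger scale, with a covered gene at each end. Hoxd1, an anterior gene of sensory neurons, was at 100% in all 16 lists, as was Hoxd13, which with Hoxa13 shapes digits and the genital tubercle. Hoxd3, involved in the neck vertebrae, had coverage of 0% to 1.45% in controls and 0.596% to 6.24% in cKO lists, and 0% in the B6CBAF1/J lists. Hoxd4, Hoxd8, Hoxd9 (chr2:74697763-74700208) and Hoxd10 (chr2:74684273-74695106) were at 0% in all 6 control, all 6 cKO and all 4 B6CBAF1/J lists. Hoxd9 and Hoxd10 belong to the group of limb and spinal motor genes, and their paralogues Hoxa9 and Hoxa10 were also uncovered or nearly so.

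Hoxd11 (chr2:74679558-74687016), a gene of the forearm and kidney that acts with Hoxa11, sat on the posterior border. In the same order of lists its coverage in controls was 4.70%, 0%, 4.78%, 12.3%, 15.4% and 4.58%, and in cKO lists 8.80%, 3.70%, 6.82%, 15.2%, 12.5% and 9.84%. It was 0%, 4.50%, 2.59% and 2.41% in the B6CBAF1/J lists at GD0.5, GD5.5 IIS, after vasectomized mating and after progesterone. The cKO list was the higher of its pair in 5 of 6 pairs, with the exception at GD18.5 IS, and the 2 genotypes overlapped.

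Hoxd12 (chr2:74675013-74677705), a limb gene next to it, was mostly inside the posterior block. Its coverage in controls was 76.0%, 53.6%, 76.1%, 88.9%, 94.3% and 75.8%, and in cKO lists 83.0%, 74.2%, 79.6%, 94.0%, 89.3% and 84.8%. The B6CBAF1/J lists gave 55.1%, 75.6%, 72.3% and 60.0%. As at Hoxd11, the cKO value was the higher in every pair but GD18.5 IS, and both genes are read against the same border. Their differences averaged 2.51 and 6.69 points over the 6 pairs and did not pass the test across genes (limma, Benjamini-Hochberg adjusted p = 0.209 and 0.214).

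The longest stretch of HoxD without a peak was 70.4 to 74.4 kb in controls (median 71.9 kb), 56.7 to 72.1 kb in cKO lists (71.1 kb) and 73.4 to 74.1 kb in B6CBAF1/J lists. It held Hoxd3, Hoxd4, Hoxd8, Hoxd9, Hoxd10 and Hoxd11 in 14 lists. In the Pgr-Cre cKO list of GD14.5 IS (56.7 kb) and the Pdgfra-Cre cKO list (65.2 kb), small peaks inside the span of Hoxd3 cut it short. With every list reduced to the same covered length those 2 stretches measured 69.8 and 71.4 kb. These lists had covered lengths of 739.6 and 731.8 Mb, against 702.5 and 608.9 Mb in their controls. The Pgr-Cre cKO list of GD18.5 IS covered 731.9 Mb and had a stretch of 71.04 kb. The control list of GD14.5 IIS covered 730.2 Mb and had a stretch of 71.9 kb. Peaks of the GD14.5 IS lists of the Pgr-Cre pair, control and cKO, carry the name of another calling round than the rest, and an input library of that cKO group lists the H3K27me3 antibody. The part of these in the result was not tested.

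The Hoxd11 border of the stretch lay 0.231 to 2.96 kb before the start of Hoxd11 in the 12 lists, and 1.48 to 2.86 kb in the 4. Its Hoxd1 border lay 11.9 to 27.002 kb before the start of Hoxd1 (median 13.0 kb) in the 12 lists and 11.1 to 12.3 kb in the 4. The stretch free in all 16 lists was chr2:74679327-74735978, 56.7 kb with 5 listed genes inside, and 2.10% of such autosomal stretches were as long.

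**Figure D3:**
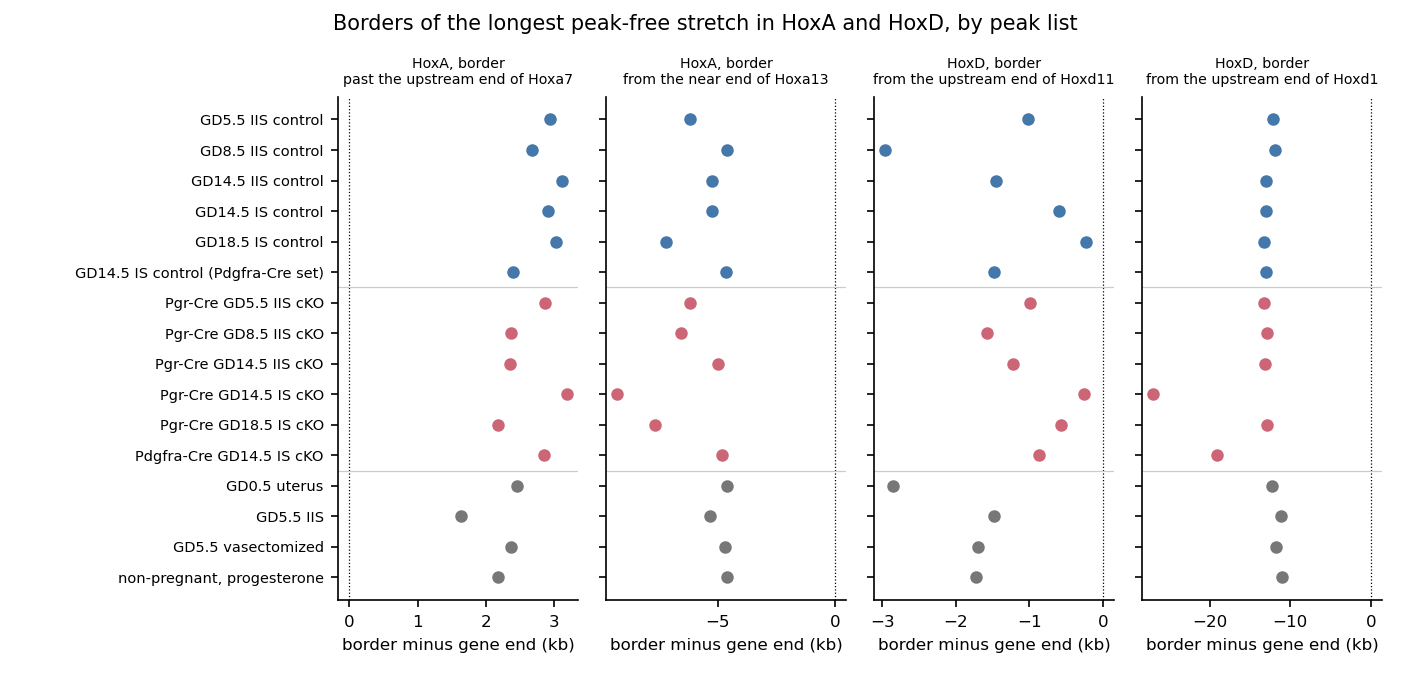
Distance in kb of the 4 borders of the longest peak-free stretches in HoxA and HoxD from a gene end (dotted line at 0), 1 point per peak list (rows; control, cKO, then B6CBAF1/J). The border past Hoxa7 stays within 1.01 kb over the 12 Kdm6b-set lists, and the border before Hoxd1 is displaced in 2 cKO lists, to 27.002 and 19.1 kb.

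The covered blocks beside these stretches were long and ran past the Hox genes. Peaks less than 5 kb apart were joined into domains. The domain over Hoxd1 had a median length of 75.3 kb over the 12 lists (73.1 to 81.2 kb) and ended just before Mtx2, a mitochondrial import gene, 0.103 to 1.64 kb from its start. The domain over Hoxd13 took in the homeobox gene Evx2 and, depending on the list, all or part of Hoxd12. It had a median of 42.6 kb (37.97 to 100.02 kb). The domain over Hoxa13 took in Evx1, the paralogue of Evx2, and had a median of 79.9 kb (77.8 to 105 kb), ending 13.3 to 35.8 kb past Evx1. In the B6CBAF1/J set the medians were 73.5 kb at Hoxd1, 41.4 kb at Hoxd13 and 82.2 kb at Hoxa13, all inside the ranges of the first set. The lengths depend on the joining distance, and at 1 kb the Hoxd1 and Hoxa13 medians were 45.6 and 51.9 kb.

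The blocks also held the strongest Hox peaks. The fold over background is the authors' value for a peak and was ranked only inside its own list. The peak over Hoxd13 and Hoxd12 had a median fold of 1.632 over the 12 lists (1.526 to 1.815) and stood between percentiles 98.84 and 99.42 of its list, with a median width of 39.1 kb. The peak over Hoxd1 had a median fold of 1.517 (percentiles 97.37 to 99.12), and that over Hoxa13 1.371 (92.59 to 97.56). Hoxb1 followed with 1.335 (82.94 to 95.71) and Hoxa7 with 1.281 (83.72 to 98.36). In the B6CBAF1/J lists the medians were 1.630 at Hoxd13, 1.502 at Hoxd1, 1.334 at Hoxa13 and 1.266 at Hoxb1, in the same order. Peaks reaching a −log10 q of 2 touched only 3 Hox genes in the Kdm6b set, Hoxd12 and Hoxd13 in 2 of 12 lists and Hoxd11 in 1. In the B6CBAF1/J set they touched Hoxd12 and Hoxd13 in 4 of 4 lists and Hoxd11 in 2.

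In HoxB, coverage was highest and varied least at the anterior end. Hoxb1, which gives a single hindbrain segment its identity, was at 100% in all 6 controls and all 4 B6CBAF1/J lists and between 92.2% and 100% in cKO lists. Its domain had a median length of 51.9 kb and ended 8.78 to 15.9 kb before the gene on the Hoxb2 side. In the Pgr-Cre cKO list of GD8.5 IIS and the control list of the Pdgfra-Cre pair it ended beyond Hoxb2. The median was 34.7 kb with peaks joined under 1 kb and 33.4 kb at equal covered length. Hoxb2, another hindbrain gene, was nearly free: 0% to 30.1% in controls (median 5.53%), 6.15% to 22.7% in cKO lists (14.3%) and 0% in 3 of the 4 B6CBAF1/J lists. From there coverage was higher towards the posterior genes. Control medians were 26.2% at Hoxb3 and 24.1% at Hoxb4, 56.5% at Hoxb5, 62.8% at Hoxb6, 63.5% at Hoxb7, 74.2% at Hoxb8 and 92.1% at Hoxb9. Neighbours in this order overlapped over the 6 lists, except Hoxb4 (up to 37.1%) with Hoxb5 (from 38.8%) and Hoxb8 (up to 79.9%) with Hoxb9 (from 84.2%). Hoxb13, the isolated posterior gene of prostate and tail, had a control median of 91.5% (56.1% to 100%) and a cKO median of 91.6% (65.9% to 97.7%). Fold was low from Hoxb2 to Hoxb13, with medians of 1.122 to 1.236.

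HoxC was covered in pieces. Control medians were 79.1% at Hoxc4, 45.9% at Hoxc5, 31.1% at Hoxc6, 78.9% at Hoxc8, 84.6% at Hoxc9, 61.7% at Hoxc10, 18.7% at Hoxc11, 62.2% at Hoxc12 and 90.9% at Hoxc13, so that coverage dipped at groups 6 and 11. These include genes of the posterior skeleton and spinal motor columns, and Hoxc13 is the gene of hair and nail. The longest peak-free stretch of a list was 3.74 to 14.6 kb and held a listed gene, Hoxc11, in only 2 control lists. Free in all 16 lists was at most 0.441 kb, and 68.0% of such autosomal stretches were as long. Median folds were 1.155 to 1.213.

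Read by paralogue group, the clusters were alike in coverage at group 13 and several groups before it split. Group 13 was covered in all 4 clusters, with control medians of 87.1% at Hoxa13, 91.5% at Hoxb13, 90.9% at Hoxc13 and 100% at Hoxd13. The folds were less alike, with medians over the 12 Kdm6b-set lists of 1.371 at Hoxa13, 1.174 at Hoxb13, 1.195 at Hoxc13 and 1.632 at Hoxd13. Group 1 was covered at Hoxb1 and Hoxd1, the only group 1 genes among the 38. In group 3 the control medians were already 58.6% at Hoxa3, 26.2% at Hoxb3 and 0.641% at Hoxd3. Group 9 split, with 4.87% at Hoxa9 and 0% at Hoxd9 against 92.1% at Hoxb9 and 84.6% at Hoxc9. Group 10 split in the same way, with 0% at Hoxa10 and Hoxd10 and 61.7% at Hoxc10. In group 11 the control medians were 0% at Hoxa11, 18.7% at Hoxc11 and 4.74% at Hoxd11. In group 4 they were 0% at Hoxd4, 24.1% at Hoxb4, 44.1% at Hoxa4 and 79.1% at Hoxc4.

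**Figure D4:**
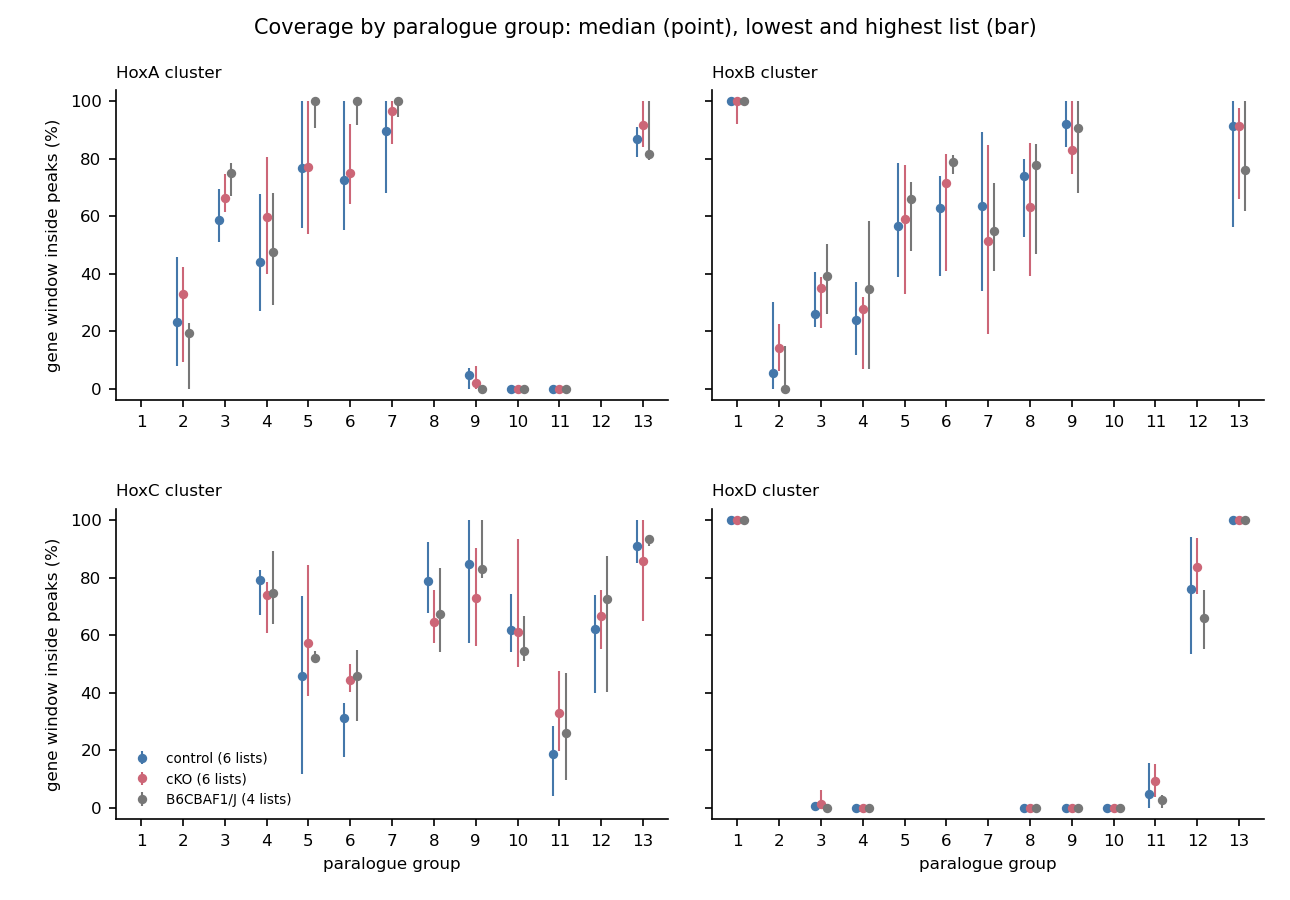
Coverage in percent by paralogue group in each cluster, as the median (point) and the lowest and highest list (bar) for 6 control, 6 cKO and 4 B6CBAF1/J lists. HoxA falls from 89.9% at Hoxa7 to 4.87% at Hoxa9 in the control medians, HoxD is near 0 from Hoxd3 to Hoxd11, and HoxB and HoxC have wide bars at most groups.

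The comparison of Kdm6b cKO with control asked whether loss of the demethylase moved these patterns. Differences within the 6 pairs were tested with limma across the 10204 genes whose coverage averaged 5% or more, among them 30 Hox genes. The 8 not tested were Hoxa9, Hoxa10, Hoxa11, Hoxd3, Hoxd4, Hoxd8, Hoxd9 and Hoxd10. At a Benjamini-Hochberg adjusted p under 0.05, 2 of the 30 rose, Hoxc6 and Hoxc11, beside 7.98% of all genes tested, and 1 fell, Hoxc8, beside 6.45%, all of them in HoxC. The median difference was 1.69 points over the 30 and 0 over all genes.

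Hoxc6, a gene of the thoracic region and mammary gland, was at 32.2%, 36.4%, 32.3%, 19.6%, 17.8% and 29.9% in the control lists, in the order of lists given for Hoxa9. In the cKO lists it was at 40.1%, 47.8%, 42.3%, 49.8%, 45.4% and 43.1%, all above every control. The difference was 16.7 points (SD 9.64, n = 6 pairs, higher in 6 of 6, limma adjusted p = 0.0375). Hoxc11, a gene of the hindlimb and lumbosacral region, was at 15.5%, 3.94%, 22.0%, 26.1%, 28.2% and 15.4% in controls and at 19.6%, 31.7%, 34.4%, 31.2%, 47.6% and 36.8% in cKO lists. It was the higher in cKO in 6 of 6 pairs, by 15.1 points on average (SD 9.43, limma adjusted p = 0.0454), with overlap between the groups.

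Hoxc8, a gene of the brachial spinal cord and rib cage that lies between Hoxc6 and Hoxc9, was at 67.7%, 73.9%, 79.0%, 78.9%, 92.6% and 92.6% in controls. In cKO lists it was at 57.3%, 63.5%, 60.3%, 65.4%, 75.8% and 74.2%, lower in 6 of 6 pairs. The mean difference was -14.7 points with an SD of 3.80, the smallest spread of the 3 (limma adjusted p = 0.00574). The groups overlapped between 67.7% and 75.8%, and the control and the cKO list of the GD18.5 IS and Pdgfra-Cre pairs were the highest of their groups.

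These calls depended on the setting, and over all genes tested the split moved too, from 814 that rose and 658 that fell as deposited to 267 and 374 at equal covered length. Without any one pair, neither Hoxc6 (14.03 to 18.48 points, adjusted p of 0.0582 to 0.0832 with limma) nor Hoxc11 (12.5 to 17.2 points, 0.0549 to 0.109) passed, although the differences stayed about as large, while Hoxc8 passed each time (0.0158 to 0.0239). Hoxc6 also passed with 5 kb on either side (11.3 points, limma adjusted p = 0.0121) and in the unpaired fit (0.00915) but not with no flank (14.8 points, 0.182). Hoxc11 passed with no flank (25.35 points, 0.00783) but not with 5 kb (13.1 points, 0.0756) or unpaired (0.0690). With all lists cut to the same covered length, the differences were -10.6 points at Hoxc6, -0.467 at Hoxc11 and -15.2 at Hoxc8, with adjusted p of 0.162, 1.00 and 0.296. With 5 kb on either side of the gene the difference at Hoxc8 was -1.098 points (adjusted p = 0.703), and it did not pass unpaired (0.0706) or with no flank (-13.5 points, 0.185).

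Markers of other cell types were read in the same comparison, and most did not pass. Of the tested genes, 1 of 5 epithelial and 1 of 4 endothelial ones rose. None of the 5 immune, 3 smooth muscle and 2 trophoblast genes passed in either direction. Of all genes tested, 7.98% rose and 6.45% fell. Cdh1, the epithelial cadherin, rose from 77.3% ± 4.49 to 87.8% ± 3.48 (higher in 6 of 6 pairs, limma adjusted p = 0.00415), and at equal covered length it was 11.7 points higher (0.0659). Tek, an endothelial receptor, rose from 1.26% ± 1.49 to 10.05% ± 4.72 (6 of 6 pairs, limma adjusted p = 0.0161). Its control mean was under the 5% filter, which Tek passed only through its cKO values. Tek was not among the genes tested at equal covered length. Of the 6 fits without a pair it was tested in 4, and it passed in those 4. The other 3 endothelial genes had higher means in cKO lists and did not pass (limma adjusted p of 0.0579 to 0.139). The part of this in the Hox values was not tested.

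No other Hox gene passed. Hoxa3 came closest, 8.61 points higher and in 6 of 6 pairs (limma adjusted p = 0.0838), and the whole HoxA span was covered more in the cKO list in 6 of 6 pairs, by 0.660 to 10.3 points (43.6% ± 3.33 against 48.6% ± 2.49, means ± SD of 6 lists). The cKO list also covered more of the genome in 5 of the 6 pairs, by 18.8 to 122.9 Mb, and 45.8 Mb less at GD14.5 IIS. These totals include the X chromosome, which was covered less in the cKO list of every pair. On the autosomes, which hold the 4 clusters, the cKO list covered 657.9 Mb against 519.8 Mb in the Pdgfra-Cre pair. At GD14.5 IIS it covered 621.1 Mb of autosomes against 644.1 Mb in the control. At equal covered length the HoxA span was higher in the cKO list in only 2 of 6 pairs (33.6% ± 3.504 in controls, 31.96% ± 4.58 in cKO lists).

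The other clusters differed in how they took that step. The HoxC span was higher in the cKO list in 3 of 6 pairs as deposited (64.1% ± 3.202 in controls, 65.3% ± 1.502 in cKO lists) and lower in 6 of 6 at equal covered length, by 1.65 to 23.3 points (50.8% ± 2.55 and 39.2% ± 5.63). The HoxB span was higher in cKO in 4 of 6 pairs as deposited and in 1 of 6 at equal covered length. The HoxD span stayed near its values, 25.6% ± 1.64 and 26.8% ± 1.38 as deposited and 25.5% ± 1.68 and 26.5% ± 0.887 at equal covered length, and was higher in cKO in 5 of 6 pairs under both. No test was made of these span values.

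The test of whether the cKO difference itself differed between the 3 IS and the 3 IIS pairs called no Hox gene and 0% of the 10204 genes (limma). At an unadjusted limma p under 0.05 it had 2 of the 30 Hox genes, Hoxc4 and Hoxc6, and 651 of all 10204. These shares are alike. Site is partly confounded with day in these pairs.

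**Figure D5:**
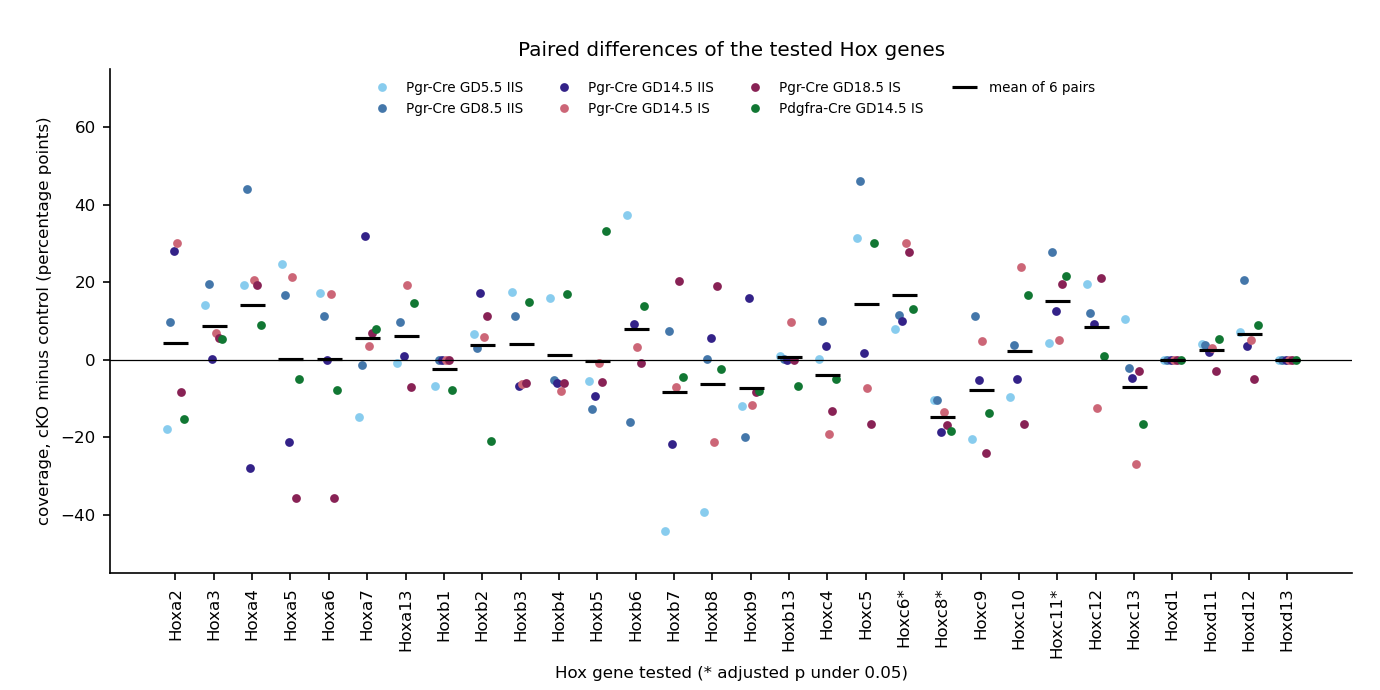
Difference in coverage, cKO minus control in percentage points, for the 30 tested Hox genes in cluster order, with 1 point per pair (6 pairs) and a bar at the mean. All 6 points of Hoxc6 and Hoxc11 lie above 0 and all 6 of Hoxc8 below, while the points of most other genes lie on both sides.

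Single comparisons set 1 list against another, with no replicate check, and called a gene gained or lost where the lists differed by 25 points or more. At Pgr-Cre GD5.5 IIS, Hoxb6 and Hoxc5 gained and Hoxb7 and Hoxb8 lost, 4 of 38, beside 2.98% of all genes. At GD8.5 IIS, Hoxa4, Hoxc5 and Hoxc11 gained (5.02% of all genes past the size, 1.80% as gains and 3.22% as losses). At GD14.5 IIS, Hoxa2 and Hoxa7 gained and Hoxa4 lost (6.16%), and at GD14.5 IS, Hoxa2 and Hoxc6 gained and Hoxc13 lost (5.97%). At GD18.5 IS, Hoxc6 gained and Hoxa5 and Hoxa6 lost (4.68%). In the Pdgfra-Cre pair Hoxb5 and Hoxc5 gained (3.82% of all genes past the size, 2.56% as gains and 1.27% as losses). Hoxc5 was thus past the size in 3 of the 6 pairs, each time as a gain, and Hoxa4 in 2 with opposite signs. In its remaining pairs Hoxc5 differed by 1.62 points at GD14.5 IIS, -7.21 at GD14.5 IS and -16.5 at GD18.5 IS. How many of all genes were past the size in several pairs was not counted.

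The control lists also differed among themselves. From GD5.5 IIS to GD8.5 IIS, Hoxb7 and Hoxb8 lost (2.83% of all genes past the size, 1.51% as gains and 1.31% as losses). From GD8.5 IIS to GD14.5 IIS, Hoxa4, Hoxb7, Hoxb8, Hoxc5 and Hoxc9 gained, 5 of 38 beside 3.09% (2.59% as gains and 0.504% as losses). These comparisons use the same control lists as the pairs above. Hoxb7 went from 63.4% to 34.1% to 67.9% and Hoxb8 from 78.5% to 52.7% to 79.9% over these 3 days, so the GD8.5 list was the lowest of the 3 at both genes.

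In the B6CBAF1/J set, 3 lists were set against the same GD0.5 list. After natural mating at GD5.5, Hoxb13 and Hoxc11 gained and Hoxc4 lost (3.93% of all genes past the size). After vasectomized mating, Hoxa4, Hoxb4 and Hoxc8 gained and Hoxb7 and Hoxc12 lost (3.74%). After progesterone, Hoxb4 gained and Hoxb7, Hoxb8, Hoxb9 and Hoxc12 lost (5.24%). Hoxc12, a posterior gene without a paralogue in HoxA, was at 87.5% at GD0.5, 87.6% after natural mating, 57.6% after vasectomized mating and 40.1% after progesterone. Hoxb4 was at 7.03%, 21.3%, 48.3% and 58.4% in the same order, with the lowest value at GD0.5 and the highest after progesterone.

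Over the 11 single comparisons, a Hox gene was past 25 points in 38 of 418 cases (9.09%), beside 4.31% of the 237897 cases of all genes. None of the 99 cases of HoxD was among them, against 9 of 110 in HoxA, 15 of 110 in HoxB and 14 of 99 in HoxC. The 18 genes never past the size were the 9 of HoxD, Hoxa3, Hoxa9, Hoxa10, Hoxa11, Hoxa13, Hoxb1, Hoxb2, Hoxb3 and Hoxc10. Hoxb7 was past it most often, in 5 of 11. A gene at 0% or 100% in both lists cannot be past the size. No peak in any list was found at 31.8% of all genes and at 6 of the 38 Hox genes. An average of at least 5% was reached by 10204 of the 21627 genes and by 30 of the 38 Hox genes. The shares of Hox genes and of all genes past the size are therefore not taken over like sets.

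Genes around and outside the clusters were read in the same way, by lists made with earlier results of these data known. Of 22 cluster neighbours, 20 were in the annotation, with a median control coverage of 2.97%. Only Evx1, Evx2, Skap1, Skap2, Calcoco2 and Ttll6 averaged at least 50%, and none of the 9 tested passed the test over 6 pairs. Evx2, a homeobox gene beside Hoxd13, averaged 99.4% ± 1.43 in controls and 98.7% ± 3.14 in cKO lists. Mtx2, on the other side of HoxD, averaged 2.08% ± 0.857, so the Hoxd1 block ended between Hoxd1 and Mtx2 in all 16 lists.

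The TALE homeodomain proteins Pbx, Meis and Pknox bind DNA together with Hox proteins, and their 9 genes had low coverage (control median 0.287%). The highest were Pbx3 at 10.95% ± 0.728, Meis3 at 7.19% ± 5.39 and Pbx4 at 4.06% ± 2.45, and neither of the 2 tested passed. The caudal and ParaHox genes, relatives of the Hox clusters, were covered like the Hox ends (median 90.7% over 6 genes). Of these 6, 2 rose and none fell, beside 7.98% and 6.45% of all genes tested: Cdx1, from 43.9% ± 17.1 to 68.6% ± 12.3 (limma adjusted p = 0.0316), and Cdx4, from 94.3% ± 3.63 to 99.5% ± 1.101 (0.0341). Both are activators of Hox genes in the early embryo. At equal covered length they were 31.4 and 6.21 points higher (limma adjusted p = 0.0420 and 0.0382), but each passed in only 1 of the 6 fits that leave out a pair. Over all alternative fits, Cdx1 passed in 8 of 14 and Cdx4 in 5 of 15. With no flank Cdx4 was at 98.5% in controls and 100% in cKO lists, higher in 2 of 6 pairs (limma adjusted p = 0.359). Of 25 Polycomb and H3K27 demethylase genes, 24 were in the annotation, with a control median of 0.467%. The 4 that averaged at least 50% were Bmi1 (60.2%), Cbx7 (57.0%), Cbx8 (60.97%) and Rbbp7. Rbbp7, a histone-binding subunit of PRC2, was the only one of 8 tested that passed and it fell, from 64.1% ± 5.84 to 41.3% ± 13.7 (limma adjusted p = 0.0383). It was 26.2 points lower at equal covered length (limma adjusted p = 0.0302) and passed in 0 of the 6 fits without a pair (0.0570 to 0.0977). Rbbp7 lies on the X chromosome, which was covered less in the cKO list of every pair. In the Pgr-Cre pair of GD14.5 IS, the cKO list covered 739.6 Mb, 687.2 Mb of them on autosomes. Its control list covered 702.5 Mb, 612.4 Mb of them on autosomes. The part of this in the fall of Rbbp7 was not tested.

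Among 10 uterine targets and partners of Hoxa10 and Hoxa11, Pgr and Esr1, the progesterone and oestrogen receptor genes, Emx2 and Itgb3 had no peak in any of the 16 lists. Of the 4 tested, Wnt7a, an epithelial Wnt ligand needed for uterine glands, rose from 39.4% ± 0.993 to 45.9% ± 3.32 (limma adjusted p = 0.0332) and none fell. It was 3.06 points higher at equal covered length (0.0701) and passed in 1 of the 6 fits without a pair. Igfbp1, a gene of decidual cells, was at 100% in all control and cKO lists.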

How the data were processed

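H3K27me3 CUT&RUN libraries of mouse uterine fibroblasts were processed by the submitters, whose notes name STAR 2.7.5c, samtools 1.10, Picard, bedtools 2.29.1, macs2 2.2.7.1, bedGraphToBigWig 2.8 and mm10. Each deposited broad peak list pools 3 samples and gives, for each peak, the authors' fold over background (a ratio), −log10 p and −log10 q. The labels hold 80 samples, 48 of them in the 16 lists used, and the other 32 (inputs among them) were not analysed here.

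Peaks were merged, and the percent of each gene span plus 2 kb inside them was computed with Python 3.11.15, numpy 2.4.6 and pandas 2.3.3 on RefSeq genes of the mm10 assembly. Differences of the 6 pairs were fitted with limma 3.58.1 (R 4.3.3) over genes averaging 5% coverage or more, with Benjamini-Hochberg adjustment, on values from pooled lists, so p-values measure the spread between pairs and not between animals. The script was tested on simulated data. Alternatives were lists cut to 80% of the shortest list's covered length by smallest p, peaks with −log10 q of at least 2, other flanks, a start-site window, no filter, subtracted medians, a trended robust prior, an unpaired fit and each pair left out. Leaving out genes with no difference in any pair was added after seeing the data. The members and all gene lists were chosen with earlier results of these data known. All members are named, with every list's value for the posterior HoxA and HoxD genes and for members that passed, and in the other lists genes that passed are named. Figures were drawn with matplotlib 3.10.9.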

Additional observations from a re-analysis of the deposited data

Results flagged for a closer look

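In 3 of 36 groups of values checked, 1 value stood far from the rest by Dixon's test (30 sets of 6 paired differences of a Hox gene and 6 sets of peak-free stretch lengths, where chance alone marks about 1 in 20). All 3 are HoxB genes. Hoxb2 differed by -20.97 points in the Pdgfra-Cre pair at GD14.5 IS, against 3.04 to 17.1 in the other 5 pairs. Hoxb5 differed by 33.15 points in the same pair, against -12.8 to -0.968 in the others. Hoxb9 differed by 15.85 points in the Pgr-Cre GD14.5 IIS pair, against -20.0 to -8.20 in the others. Over autosomes and the X chromosome together, the control list of the Pdgfra-Cre pair covered 122.9 Mb less than the cKO list. In the GD14.5 IIS pair it covered 45.8 Mb more. The part of this in the 3 values was not tested. Without the GD14.5 IIS pair, Hoxb9 fell with Hoxc8, which makes 2 genes that fell in place of 1.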

How the results depend on the processing

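The median peak-free stretches of HoxA and HoxD (31.6 and 71.3 kb) moved by less than 1 SD at equal covered length. The cKO calls changed. The number of Hox genes that rose (2) was 0 at equal covered length, with strong peaks only (−log10 q of at least 2; 2 genes tested), around the start site (14 tested) and without the filter, 1 in the unpaired fit, and 0 to 0 with a pair left out. The number that fell (1) was 0 at equal covered length, with strong peaks, with 5 kb flanks, with no flank, around the start site and unpaired, and 1 to 2 with a pair left out. Over all genes limma called 814 that rose and 658 that fell, against 267 and 374 at equal covered length, 11 and 2 around the start site, 0 and 5 with strong peaks, 630 and 403 with no flank, and 402 to 518 and 191 to 608 with a pair left out. At equal covered length Hoxc6 (-10.59 points) and Hoxc11 (-0.467) reversed. Mean coverage at equal covered length was 37.82% in HoxA, 40.89% in HoxB and 44.51% in HoxC against 48.22%, 58.29% and 61.8%, and with strong peaks only 0% in these 3 and 3.092% in HoxD against 32.25% (35.85% around the start site). The count of single-comparison cases was 38 as reported, 68 at equal covered length, 8 with strong peaks, 17 with 5 kb flanks, 79 with no flank and 1 at 50 points. The share of all genes past the size was taken only for the setting as reported (4.31%). The other counts therefore have no background, and whether all genes moved alike is not known. Domain medians were 17.07, 120 and 25.31 kb at Hoxa7 (joined under 1 kb, under 10 kb, equal length; 55.47 kb as reported), 51.9 and 93.36 kb at Hoxa13 (1 and 10 kb; 79.86), 99.04 kb at Hoxd13 (10 kb; 42.61) and 45.55 kb at Hoxd1 (1 kb; 75.33). A length-weighted fold moved 10 of 32 genes by over 1 SD. The causes were not tested beyond the change in covered length itself. No paired analysis was possible by replicate number because the lists pool samples whose numbers are not shared between groups; the pairs are lists of the same day and site.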
